A study of Mus musculus with 4 samples.

Results

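The 9 genes described here store vitamin A and make, bind or sense retinoic acid: Lrat, Stra6, Rdh10, Aldh1a1, Aldh1a2, Aldh1a3, Crabp1, Crabp2 and Rarb. They were picked by gene symbol, and all 9 were found among the 31053 genes of the count tables. Their transcripts were counted in single cells of mouse liver, as unique molecular identifiers (UMIs), each of which stands for 1 captured RNA molecule. Every mouse carried Col1a2-CreERT2, a Cre recombinase driven by the promoter of a collagen gene of fibrogenic cells, together with a tdTomato reporter, so the reporter marks cells in which that promoter was active. The mice received a diet without methionine and choline for 8 weeks, with fat at 45% and L-methionine added back to the water at 0.1% (MCDHF), a model of steatohepatitis. Cells called non-parenchymal in the labels were taken at injury or at recovery, from a reporter-positive or a reporter-negative fraction. Of these, 3 libraries were used: positive recovery (genotype in the labels Col1a2-CreERT2; R27RtdTomato), negative recovery (R29RtdTomato) and negative injury (R28RtdTomato), whereas the text on the series names the reporter R26RtdTomato. Counts of a library of positive cells at injury were not analysed here. The sources used here do not give the ages of the mice, the time of Cre induction, the length of recovery or whether animals were pooled. Each group is 1 library, so no test between groups was possible, and all intervals below cover counting error alone.

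Vitamin A reaches cells as retinol bound to the plasma carrier Rbp4, and Stra6 is a membrane receptor that takes it up. Lrat joins retinol to a fatty acid, and the retinyl esters made in this way fill the lipid droplets of hepatic stellate cells, the main vitamin A store of the body. Rdh10 oxidises retinol to retinaldehyde, and Aldh1a1, Aldh1a2 and Aldh1a3 oxidise retinaldehyde to retinoic acid. Crabp1 and Crabp2 carry retinoic acid in the cytoplasm. Rarb is a nuclear receptor for it and is itself a classical target of retinoic acid, and enzymes of the Cyp26 family break the acid down. Stellate cells that become myofibroblasts are known to lose their retinoid droplets, and Aldh1a2 (also called Raldh2) is widely used as a marker of mesothelium.

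Retinoic acid receptors bind direct repeats of a short half-site, and 3 upstream sequences are shown because they hold such a repeat and belong to genes with different levels in these cells. Binding was not measured, so a repeat alone does not show which receptor, if any, binds there. The half-sites searched were AGGTCA (the consensus), its variant AGTTCA, and the variants of both that begin with a G (GGGTCA and, for the latter, GGTTCA), in any pairing, on both strands, with 1, 2 or 5 bases between them, in the 250 bases before each start site of the RefSeq table (GRCm38.p6). Sequences run 5' to 3' on the gene's own strand, and capitals mark the repeat. The Rarb window is chr14:16575477-16575726 on the minus strand and lies inside the annotated span of the gene, at an internal start site. The other windows are chr19:37697558-37697807 (Cyp26a1, which degrades retinoic acid) and chr8:117095615-117095864 (Bco1, which cleaves beta-carotene to retinaldehyde), both on the plus strand.
Rarb: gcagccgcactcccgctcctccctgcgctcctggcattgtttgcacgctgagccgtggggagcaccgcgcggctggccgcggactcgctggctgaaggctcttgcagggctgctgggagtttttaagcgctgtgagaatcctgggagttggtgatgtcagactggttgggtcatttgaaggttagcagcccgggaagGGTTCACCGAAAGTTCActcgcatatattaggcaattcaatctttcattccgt
Cyp26a1: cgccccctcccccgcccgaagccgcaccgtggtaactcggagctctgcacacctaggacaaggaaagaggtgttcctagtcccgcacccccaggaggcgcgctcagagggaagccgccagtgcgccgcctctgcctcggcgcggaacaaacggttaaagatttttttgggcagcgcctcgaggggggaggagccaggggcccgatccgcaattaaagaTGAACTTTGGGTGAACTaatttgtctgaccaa
Bco1: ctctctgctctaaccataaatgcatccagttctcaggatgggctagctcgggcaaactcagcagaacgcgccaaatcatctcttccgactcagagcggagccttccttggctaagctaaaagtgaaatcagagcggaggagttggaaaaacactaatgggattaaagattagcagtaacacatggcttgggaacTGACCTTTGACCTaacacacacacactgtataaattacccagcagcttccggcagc

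A repeat with 5 bases between the half-sites was found in 0.0883% of 32851 such windows, and in 28 of 27025 genes. Rarb held one that began 53 bases before its start site, and Cyp26a1 held one on the opposite strand. Repeats with 1 base between the half-sites occurred in 0.164% of windows, Bco1 among them on the opposite strand, and those with 2 bases in 0.174%. Of the 9 genes, 6 were in the table, with 10 windows, and the windows of Lrat, Stra6, Aldh1a1, Aldh1a2 and Crabp1 held none of the 3 repeats. Levels of Rarb and Bco1 differed between cell classes, whereas Cyp26a1 was near 0 in all. Rarb UMIs were commonest in endothelial cells, Bco1 UMIs in stellate cells at 131 and 196 CPM (UMIs per 1000000 UMIs of the cells summed), and Cyp26a1 did not exceed 1.04 CPM in any class described below.

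After filtering, 2380 cells of the positive recovery, 2949 of the negative recovery and 5443 of the negative injury library were used, with medians of 11232, 8670 and 6849 UMIs per cell. Cells were assigned to a class when they held at least 1 UMI of both genes of a pair and passed no other pair: Reln and Colec11 for stellate, Upk3b and Nkain4 for mesothelial, Dpt and Mfap4 for fibroblast-like, Epcam and Spp1 for duct, Kdr and Ptprb for endothelial cells. Ptprc and Coro1a gave leukocytes, which served as a class that should lack stellate and mesothelial genes. The positive recovery library held 102 stellate, 1245 mesothelial, 74 fibroblast-like, 23 duct, 146 endothelial and 113 leukocyte cells. The negative recovery library held 5, 67, 1, 384, 2281 and 2 of them in the same order, and the negative injury library 39, 255, 0, 1018, 3570 and 1. Levels are given for the 12 groups with at least 30 cells. In 10 of these 12 groups all 8 markers of the class that the gate had not used reached 10 CPM, whereas 6 of 8 did in fibroblast-like and 7 of 8 in negative recovery duct cells. The mesothelial groups also carried fibroblast-like markers at a summed 1305 to 2973 CPM, against 1930 CPM in the fibroblast-like group, led by Gas1. The fibroblast-like group carried stellate markers at 1189 CPM, with 7 of 8 at 10 CPM or more. Duct cells carried hepatocyte markers at 6943 CPM (negative recovery) and 10040.5 CPM (negative injury), above their own duct markers at 2116 and 2161 CPM. The positive recovery leukocytes carried stellate markers at 70.4 CPM, mesothelial markers at 130 CPM and endothelial markers at 204 CPM. Cells passing several pairs numbered 238, 71 and 188, and cells passing none 439, 138 and 372. Any pair of libraries shared 3 to 8 barcodes. The doublet caller marked 4.34% of positive recovery cells but only 0.203% and 0.0918% in the negative libraries, where many doublets may thus remain. Its automatic threshold was not checked.

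Lrat, the enzyme of retinyl ester storage (ENSMUSG00000028003, chromosome 3, 82892579 to 82903973, minus strand, mm10), was a stellate transcript in these livers. It stood at 803 CPM (95% Poisson interval 749 to 860) in the 102 stellate cells of the positive recovery library and at 1193 CPM (1091 to 1302) in the 39 taken at negative injury. The 5 stellate cells of the negative recovery library held 77 Lrat UMIs, and each of the 5 had at least 1. Fibroblast-like cells had 102 CPM (80.7 to 127), beside the stellate markers at 1189 CPM in the same cells, whose part in this level was not tested. No other group exceeded 11.0 CPM. Mesothelial cells, the most numerous class of the positive fraction, had 1.38 (0.922 to 1.98), 0.82 and 3.92 CPM (recovery positive, recovery negative and injury negative), and the intervals of all 3 overlapped that of leukocytes (0.978 CPM, 0.0248 to 5.45).

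Lrat was detected in 83.3% of positive recovery stellate cells (85 of 102; exact Clopper-Pearson interval 74.7 to 90.0) and in 94.9% of those at negative injury (37 of 39; 82.7 to 99.4), at median depths of 10539.5 and 11053 UMIs. Leukocytes of the positive recovery library had a Lrat UMI in 0.885% of 113 cells, at a median of 5838 UMIs. With every cell thinned to 1000 UMIs the shares were 48.0% of 98 and 72.2% of 36 stellate cells, and 0.893% of 112 leukocytes. Among single stellate cells the Lrat level had a median of 678 CPM with quartiles of 125 and 1344 at positive recovery, where 17 of 102 cells held none. At negative injury the median was 1087 CPM with quartiles of 875 and 1455, and 2 of 39 cells held none. The lower quartile of the positive recovery cells thus lay far below that of the negative injury cells, while their upper quartiles were close.

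**Figure D1:**
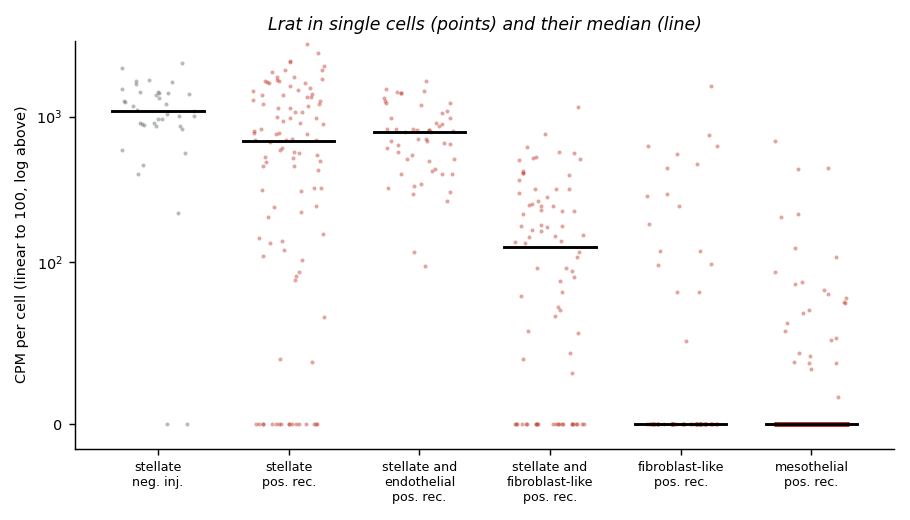
Lrat level of single cells (vertical axis, CPM per cell, linear to 100 and logarithmic above) in cell groups defined by marker pairs; each point is 1 cell and each line the group's median. Stellate cells spread from 0 to 3161 CPM at positive recovery, and cells that passed both the stellate and the fibroblast-like pair lie lower, with a median of 127 CPM.

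Most Lrat UMIs of the positive recovery library were outside the classes above: 58.9% were in cells passing several pairs, against 34.5% in stellate and 3.37% in fibroblast-like cells. A pair of such double groups, looked at after the data were seen, differed from each other. The 80 cells passing both the stellate and the fibroblast-like pair had Lrat at 173 CPM (151 to 197), with Reln, a stellate marker, at 455 CPM and Dpt at 989 CPM. In the 53 cells passing both the stellate and the endothelial pair Lrat stood at 766 CPM (719 to 816) and was present in all 53, at a median of 23117 UMIs, with the endothelial gene Cyp26b1 at 213 CPM. Lrat was therefore near its stellate level in the cells with endothelial transcripts and lower in those with fibroblast-like transcripts, where 10.0% of thinned cells held a Lrat UMI against 45.3%. Whether these are mixed droplets or single cells was not tested. Of the 74 cells passing the fibroblast-like pair alone, 18 held a Lrat UMI and 1 of them held 24 of the 79 UMIs.

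Stra6, the retinol receptor (ENSMUSG00000032327, chromosome 9, 58063788 to 58153996, plus strand, mm10), was rare everywhere. There were 101 Stra6 UMIs at positive recovery, 1 at negative recovery and 10 at negative injury. Of the 101, 90 came from 25 mesothelial cells, and 63 of these 90 from a single cell with 177516 UMIs, the deepest of all libraries. Without that cell the mesothelial level was 1.29 CPM (0.852 to 1.88) in place of 4.27 CPM (3.44 to 5.25). The mesothelial cells of the negative recovery and negative injury libraries had 0 Stra6 UMIs, which allows up to 2.46 and 0.589 CPM at 3 counts. Stellate cells also had none, with limits of 2.98 CPM at positive recovery and 7.09 CPM at negative injury, so a low level there was not detectable at this depth.

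The binding proteins gave little signal. Crabp1 (ENSMUSG00000032291, chromosome 9, 54764748 to 54773110, plus strand) had 0 UMIs in all 3 libraries. Crabp2 (ENSMUSG00000004885, chromosome 3, 87948666 to 87953376, plus strand) had 22, 1 and 24 UMIs, and 13 of the 19 in positive recovery mesothelial cells were in the same deep cell that held most of the Stra6 UMIs. In the negative injury library the 24 Crabp2 UMIs lay in 24 different cells, 15 of them endothelial.

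Rdh10, which makes retinaldehyde from retinol (ENSMUSG00000025921, chromosome 1, 16105774 to 16133734, plus strand), was highest in mesothelial cells at injury. Mesothelial cells had 162 CPM (151 to 174) at negative injury, 37.7 CPM (27.6 to 50.3) at negative recovery and 52.9 CPM (49.8 to 56.1) at positive recovery. The injury value stood apart from both recovery values, whose intervals overlapped. A Rdh10 UMI was found in 81.6% of the 255 injury cells against 41.8% of 67 and 36.8% of 1245 recovery cells, at medians of 20177, 15749 and 14705 UMIs. Thinned to 1000 UMIs, the shares were 14.7%, 4.48% and 4.45%. Stellate cells had 35.8 CPM (25.1 to 49.5) at positive recovery and 11.8 CPM (3.84 to 27.6) at negative injury, overlapping intervals that rest on 36 and 5 UMIs. The remaining groups lay between 8.81 and 12.9 CPM, leukocytes included. The leukocyte value comes from the positive recovery library alone and rests on 9 UMIs (8.81 CPM, 4.03 to 16.7). It was thus too uncertain to tell the other groups from this reference class.

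Aldh1a1, an aldehyde dehydrogenase also abundant in hepatocytes (ENSMUSG00000053279, chromosome 19, 20492715 to 20643465, plus strand), was the most widely spread of the 3 retinaldehyde dehydrogenases. Mesothelial cells held it at 485 CPM (466 to 505) at negative injury, 202 CPM (177 to 229) at negative recovery and 231 CPM (225 to 238) at positive recovery. Stellate cells had 331 CPM (278 to 390) at negative injury and 188 CPM (162 to 217) at positive recovery. Mesothelial cells were thus higher in the injury library, with intervals that did not overlap. The stellate intervals did not overlap either, but those groups differ in fraction as well as stage. The 5 stellate cells of the negative recovery library held 19 Aldh1a1 UMIs, and each of the 5 had at least 1. Duct cells, which also carried the hepatocyte markers given above, had 152 CPM (141 to 163) at recovery and 169 CPM (162 to 175) at injury, and fibroblast-like cells had 157 CPM. The part of hepatocyte RNA in the duct values was not tested. Endothelial groups and leukocytes stayed between 3.91 and 9.57 CPM. Among cells passing no pair, those with a UMI each of Apoa1, Apoc3 and Fabp1, transcripts of hepatocytes, had more Aldh1a1: 1282 CPM (1223 to 1343) in 93 negative injury cells, where albumin (Alb) stood at 24868 CPM, and 716 CPM (528 to 949) in 23 negative recovery cells. These cells were looked at after the data were seen.

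Aldh1a2, the marker of mesothelium (ENSMUSG00000013584, chromosome 9, 71215789 to 71296243, plus strand), was found mainly in that class. Mesothelial cells had 91.1 CPM (87.1 to 95.3) at positive recovery, 46.8 CPM (35.4 to 60.6) at negative recovery and 54.0 CPM (47.8 to 60.7) at negative injury. No other group exceeded 7.74 CPM, and the 39 stellate cells of the negative injury library had 0 UMIs, which allows 7.09 CPM. Of mesothelial cells, 51.6%, 46.3% and 54.1% held an Aldh1a2 UMI in the same order of libraries, against 3.54% of leukocytes. Thinned, these shares were 8.40%, 1.49% and 4.78%, against 0 of 112 leukocytes. Of all Aldh1a2 UMIs, mesothelial cells held 87.2% in the positive recovery, 53.8% in the negative recovery and 77.9% in the negative injury library, and duct cells held 31.1% and 10.2% in the negative libraries. Aldh1a3 (ENSMUSG00000015134, chromosome 7, 66390890 to 66427517, minus strand) was low: 18.9 CPM (8.16 to 37.2) in negative injury stellate cells, 10.3 CPM (4.46 to 20.3) in fibroblast-like and 7.95 CPM (3.43 to 15.7) in positive recovery stellate cells, with 8 UMIs behind each. In the double group of stellate and fibroblast-like pairs it had 28 UMIs in 19 of 80 cells, 21.9 CPM (14.5 to 31.6).

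Transcripts of the oxidation steps were also counted together in single mesothelial cells. Among 1245 positive recovery mesothelial cells, 305 held UMIs of both Rdh10 and Aldh1a2, 153 of Rdh10 alone and 338 of Aldh1a2 alone. At negative injury the numbers were 113, 95 and 25 of 255 cells, so a cell there more often held Rdh10 without Aldh1a2 than the reverse. No stellate cell of either library held both. Only 3 of 102 stellate cells at positive recovery and 0 of 39 at negative injury held any Aldh1a2 UMI, so pairs with Aldh1a2 could hardly be seen there. Both Aldh1a1 and Aldh1a2 were found in 590 positive recovery and 136 negative injury mesothelial cells, whereas 1 stellate cell in all did so. These are raw counts of cells and depend on depth and on how common each transcript was. Rdh10 and Aldh1a2 were found in 458 and 643 of the positive recovery mesothelial cells, and in 208 and 138 of those at negative injury. Whether they shared cells more often than independent transcripts would was not tested.

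Rarb, the receptor (ENSMUSG00000017491, chromosome 14, 16430839 to 16819156, minus strand), had the opposite distribution. Endothelial cells had 61.6 CPM (58.4 to 64.9) at negative injury, 53.5 CPM (50.3 to 56.8) at negative recovery and 59.8 CPM (47.1 to 74.9) at positive recovery. Stellate cells followed at 42.5 CPM (25.2 to 67.2) and 36.8 CPM (25.9 to 50.7), and fibroblast-like cells at 31.0 CPM (19.8 to 46.1). In the order of levels, neighbours among these 6 groups had overlapping intervals. Duct cells had 15.9 and 12.2 CPM, below all 6. Mesothelial cells, with 1.57 to 4.10 CPM, were level with leukocytes at 1.96 CPM. Thus the class with the highest Rdh10 and Aldh1a2 levels was among the lowest in Rarb. In stellate cells 24 of 102 (positive recovery) and 15 of 39 (negative injury) held both Rarb and Lrat, out of 27 and 15 with Rarb. Lrat was found in 85 and 37 of these stellate cells, so this overlap does not tell whether Rarb and Lrat go together.

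Within endothelial cells Rarb was higher in those with UMIs of Rspo3 and Wnt9b, which are known from central vein endothelium. Such cells had 111 CPM (95.4 to 127) at negative recovery, where they numbered 142, and 121 CPM (104 to 139.6) at negative injury, where they numbered 194. Cells with Stab2, a scavenger receptor of sinusoidal endothelium, and without Vwf had 49.8 CPM (46.5 to 53.3) and 60.2 CPM (56.7 to 63.9), and those with Vwf and without Stab2 93.5 and 85.8 CPM. Their depths were 11355.5 and 7583 UMIs for the Rspo3 and Wnt9b cells against 8337 and 6158.5 for the Stab2 cells, and thinned shares were 7.75% and 8.76% against 5.32% and 5.02%, with overlapping intervals. These subsets were chosen after the data were seen. Cyp26b1, the endothelial enzyme that degrades retinoic acid, did not run in parallel in both libraries: it was at 173 CPM in the Rspo3 and Wnt9b cells and 263 CPM in the Stab2 cells at negative recovery, but at 570.5 and 309 CPM at negative injury.

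**Figure D2:**
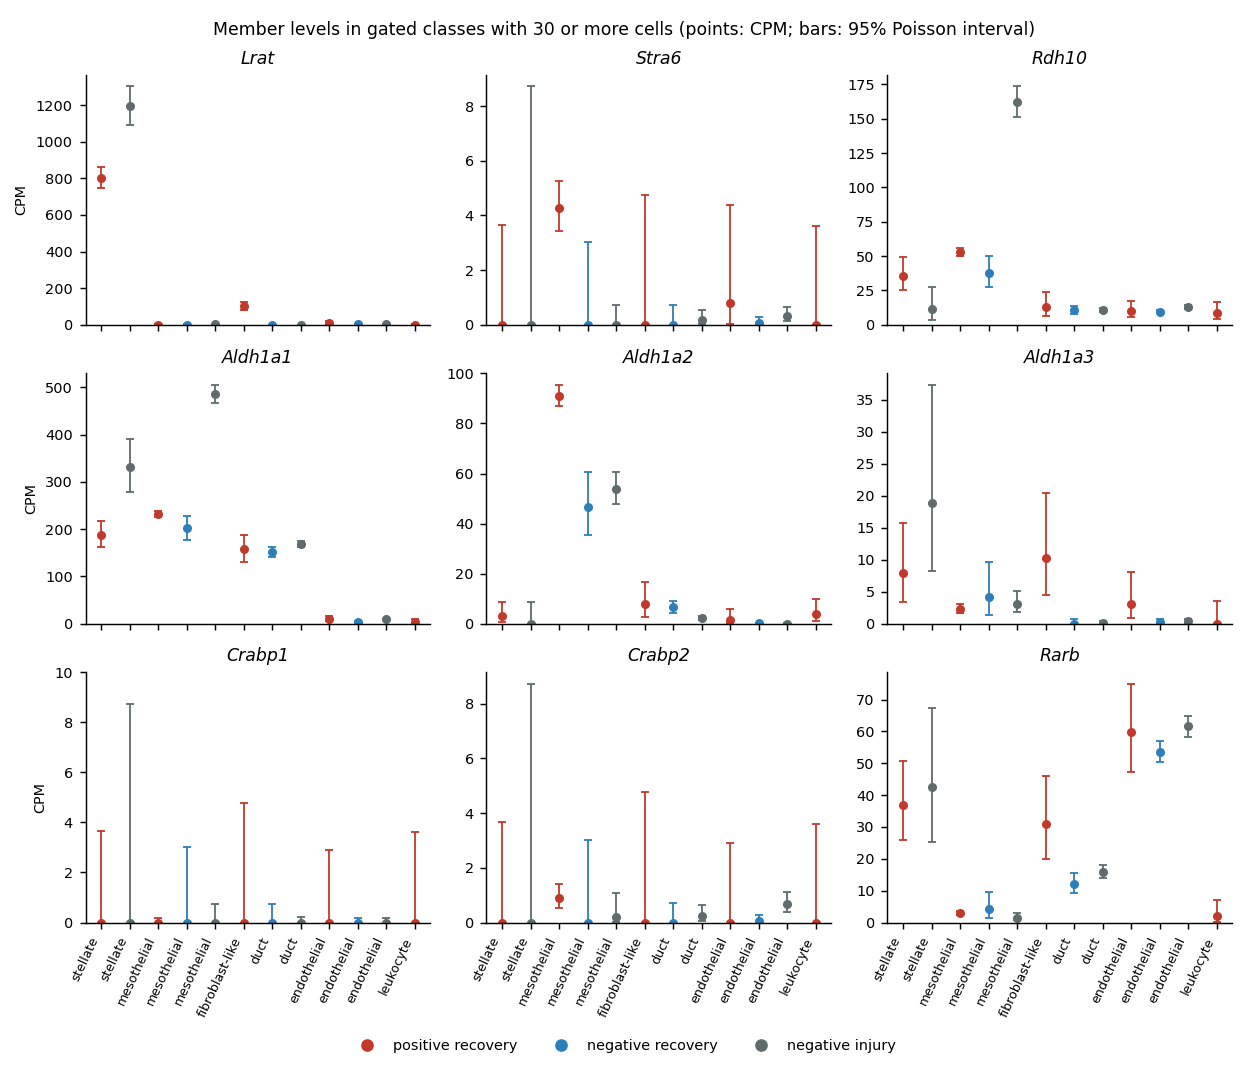
Level of each of the 9 genes (vertical axes, CPM, a separate scale for each gene) in the 12 groups of class and library with at least 30 cells; points are CPM, bars exact 95% Poisson intervals and colours the 3 libraries. Lrat is high in the 2 stellate groups, Aldh1a2 in the 3 mesothelial groups and Rarb in the 3 endothelial groups, Rdh10 peaks at 162 CPM in negative injury mesothelial cells, and Crabp1 is at 0 throughout.

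In all, 35 of the 108 levels of a gene in a group reached 10 CPM. For log2 ratios 10 CPM was added to both levels, and a difference counts as past 2-fold at a log2 ratio of at least 1 in size. A gene under 10 CPM in both groups cannot reach that. The shares of all genes given beside such counts leave these low genes out, whereas the counts of the 9 genes and of the pathway genes keep them. Scaling by trimmed means (TMM) in place of total UMIs moved all ratios of a comparison by -0.20 to 0.16. Stellate against mesothelial cells within the positive recovery library had 3 of the 9 genes past 2-fold, where 19.7% of 9513 genes were (9.61% higher, 10.1% lower): Lrat (803 against 1.38 CPM, 6.16) and Rarb (36.8 against 2.94 CPM, 1.85) were higher in stellate cells and Aldh1a2 (2.98 against 91.1 CPM, -2.96) was lower. Fibroblast-like cells, with stellate markers at 1189 against 404 CPM, had 4 past 2-fold against mesothelial cells, where 17.6% of 9710 genes were (9.59% higher, 8.01% lower): Lrat (3.30) and Rarb (1.66) were higher, Aldh1a2 (-2.51) and Rdh10 (12.9 against 52.9 CPM, -1.46) lower. Of the 9 genes, 5 and 6 reached 10 CPM in these comparisons. Their median ratio over all 9 was -0.12 in each, which is the ratio of Crabp2 (0 against 19 UMIs) and so says little about the 9 genes. The median over the 9513 and 9710 genes was 0.05 and 0.09. The Rarb ratios fell short of 2-fold with 50 CPM added (0.71 and 0.61), as did that of Rdh10 (-0.71), which also did so with cells of several pairs kept (-0.70).

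Of 43 other retinoid pathway genes, 27 reached 10 CPM in stellate or mesothelial cells. Past 2-fold, 9 were higher and 5 lower in stellate than in mesothelial cells, with a median ratio of 0 over the 43. Of all 9513 genes tested, 9.61% were higher and 10.1% lower. Stellate cells had more Bco1 (131 against 0.902 CPM, 3.70), more lipoprotein lipase Lpl (508 against 13.0 CPM, 4.50) and more Nr2f2, an orphan nuclear receptor (602 against 136 CPM, 2.06). Mesothelial cells had more Fabp5, which can carry retinoic acid (375 against 26.8 CPM, -3.38 as stellate over mesothelial), more of the endocytic receptor Lrp2 (102 against 0.994 CPM, -3.35), more Ces1d, a carboxylesterase (84.4 against 4.97 CPM, -2.66), and more of the retinoid-responsive genes Rarres2 (3695 against 1291 CPM, -1.51) and Rarres1 (19.4 CPM against 0 UMIs, at least 6.51-fold lower in stellate cells). Dhrs3, which turns retinaldehyde back to retinol, was at 119 CPM in stellate and 36.9 CPM in mesothelial cells (1.46). The stellate Bco1 level at negative injury was 196 CPM.

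Fibroblast-like cells had 7 of the 43 past 2-fold higher and 6 lower than mesothelial cells, and 27 of the 43 reached 10 CPM. Of all 9710 genes tested, 9.59% were higher and 8.01% lower. The 6 lower ones are counted only. They shared higher Lpl (1268 CPM, 5.80), Dhrs3 (192 CPM, 2.11), Nr2f2 (605 CPM, 2.07) and Nr2f1 (31.0 CPM, 1.42) with stellate cells, and their Bco1 level was 5.16 CPM. Cyp1b1, a cytochrome P450 able to oxidise retinoids, was at 46.5 against 13.1 CPM (1.29). Endothelial cells, in which Rarb was highest, also had Cyp26b1 at 359 CPM (positive recovery), 245 CPM (negative recovery) and 330 CPM (negative injury), against at most 2.46 CPM in the other groups. Their Dhrs3 level was 504, 452 and 316 CPM. Duct cells held Stra6l, a relative of Stra6, at 36.8 and 47.2 CPM, while no other group exceeded 0.978 CPM.

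**Figure D3:**
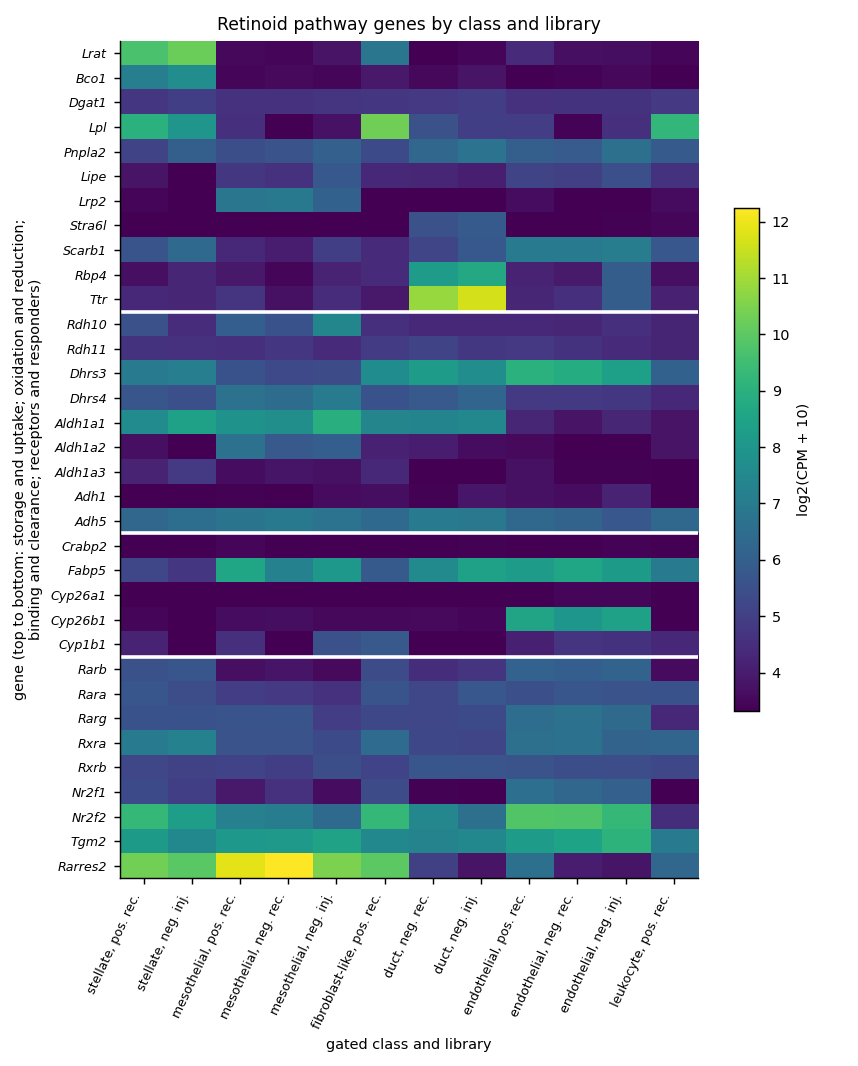
Level of retinoid pathway genes (rows, grouped by role) in the 12 groups of class and library (columns), as log2(CPM + 10) in colour. Lrat and Bco1 are brightest in the stellate columns, Rarres2 and Lrp2 in the mesothelial, Ttr, Rbp4 and Stra6l in the duct, and Cyp26b1 and Dhrs3 in the endothelial columns.

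Reporter-positive against reporter-negative cells at recovery were compared as sums over whole libraries, in which fewer cells of a type and less RNA per cell cannot be told apart. Lrat stood at 74.6 against 5.59 CPM (2.44), Aldh1a2 at 70.0 against 3.90 CPM (2.53), Aldh1a1 at 201 against 49.3 CPM (1.83) and Rdh10 at 45.4 against 11.3 CPM (1.38), all higher in the positive library, and Rarb at 10.0 against 41.7 CPM (-1.37) was lower. These 5 of 9 genes were past 2-fold, where 19.4% of 10042 genes were (8.99% higher, 10.4% lower). No other of the 9 reached 10 CPM in either library. Mesothelial cells made up 52.3% of the positive and 2.27% of the negative library, stellate cells 4.29% and 0.170%, and endothelial cells 6.13% and 77.3%. Within classes 0 of the 9 genes were past 2-fold, both in mesothelial cells (1.62% of 8820 genes were, 1.49% higher and 0.136% lower) and in endothelial cells (1.02% of 8838 genes were, 0.939% higher and 0.0792% lower). In each of these classes only 3 of the 9 genes reached 10 CPM in either fraction, so the rest could not pass 2-fold. The nearest was Aldh1a2 in mesothelial cells, at 91.1 against 46.8 CPM (0.83). In endothelial cells Lrat was at 11.0 against 3.01 CPM (0.69), beside a summed level of mesothelial markers of 160 against 24.2 CPM in the same cells, of fibroblast-like markers of 220 against 93.9 CPM, and of stellate markers of 309 against 211 CPM. The part of RNA from other cells in this was not tested. Of the 43 pathway genes, 6 were past 2-fold higher and 8 lower in the library sums, 4 higher and 0 lower within mesothelial cells, and 2 higher and 0 lower within endothelial cells. The 4 were Rarres1, Lpl and Cyp1b1, each with 0 UMIs in the 67 negative recovery mesothelial cells, and Fabp5 at 375 against 142 CPM (1.34).

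**Figure D4:**
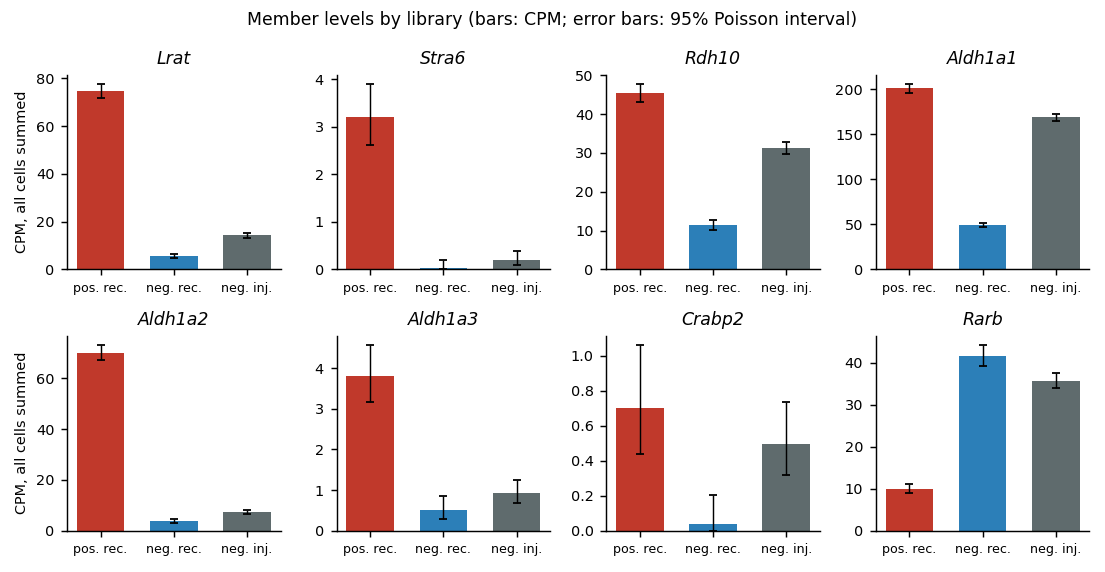
Level of 8 of the 9 genes in the 3 libraries (Crabp1, with 0 UMIs, is left out), with the UMIs of all cells summed (bars, CPM; error bars, exact 95% Poisson intervals). Lrat and Aldh1a2 stand above both negative libraries in the positive recovery library, Rarb lies at 10.0 CPM there against 41.7 and 35.7 CPM, and Aldh1a1 separates the negative injury library (169 CPM) from negative recovery (49.3 CPM).

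Recovery against injury could be set side by side in the negative fraction. In library sums Lrat had 5.59 against 14.2 CPM (-0.64), Rdh10 11.3 against 31.3 CPM (-0.95), Aldh1a1 49.3 against 169 CPM (-1.59), Aldh1a2 3.90 against 7.26 CPM (-0.31) and Rarb 41.7 against 35.7 CPM (0.18). Aldh1a1 alone was past 2-fold, against 4.93% of 9712 genes (1.53% higher, 3.4% lower at recovery), and with TMM scaling Rdh10 joined it. The Aldh1a1 UMIs came mainly from duct (57.6%) and mesothelial cells (18.3%) at recovery. At injury they came mainly from duct (32.1%), mesothelial (30.1%) and cells passing no pair (22.9%). Adh1, an alcohol dehydrogenase of hepatocytes (3.42 against 54.3 CPM, -2.26), Rbp4 (73.6 against 377 CPM, -2.21) and Ttr, the plasma partner of Rbp4 (408 against 1446 CPM, -1.80), were the 3 of 43 pathway genes past 2-fold. All 3 were lower at recovery. Among the classes, Ttr was highest in duct cells, at 1839 CPM at recovery and 3265 CPM at injury, as was Rbp4, at 296 and 404 CPM, beside the hepatocyte markers that those cells carried.

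Within mesothelial cells 3 of the 9 genes reached 10 CPM. Past 2-fold were 2 of the 9, both lower at recovery, against 5.15% of 8757 genes (2.51% higher, 2.64% lower). These were Rdh10 (37.7 against 162 CPM, -1.85) and Aldh1a1 (202 against 485 CPM, -1.22), and both stayed past 2-fold in each of 9 alternative settings, at -1.27 to -2.08 and -1.09 to -1.40. Aldh1a2, the third oxidation gene, was at 46.8 against 54.0 CPM (-0.17; -0.64 to 0.29), which reaches neither 2-fold value. Taken singly, these same cells had a median Rdh10 level of 129 CPM with quartiles of 48.5 and 237 at injury. At recovery the median was 0 with an upper quartile of 64.6, at a lower median depth (15749 against 20177 UMIs). Aldh1a1 had medians of 333 and 138 CPM. The positive recovery mesothelial cells had 52.9 CPM of Rdh10 and 231 CPM of Aldh1a1, near the negative recovery values. These cells entered no part of that comparison but may come from the same mice as the negative recovery cells. Of the pathway genes, Rarres2 (4820 against 1409 CPM, 1.77) and Ces1d (109 against 3.14 CPM, 3.18) were past 2-fold higher at recovery, and Lipe, a lipase that can hydrolyse retinyl esters (13.9 against 44.9 CPM, -1.20), and Cyp1b1 (0 UMIs against 36.3 CPM, at least 14.7-fold lower) were lower. The summed mesothelial markers moved too, at 8783 CPM at recovery and 5444 CPM at injury, as did the fibroblast-like list at 2973 and 1305 CPM and the smooth muscle list at 61.5 and 237 CPM. The part of such shifts in the Rdh10 and Aldh1a1 ratios was not tested.

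Duct cells and endothelial cells had 0 of the 9 genes past 2-fold between recovery and injury, where 2.97% of 9374 (0.853% higher, 2.11% lower) and 3.58% of 8689 genes were (0.794% higher, 2.79% lower). Only 3 of the 9 reached 10 CPM in duct and 2 in endothelial cells, so the rest could not pass 2-fold. In duct cells Rdh10 was at 10.6 CPM in both libraries and Aldh1a1 at 152 against 169 CPM (-0.14; -0.29 to 0.01). The largest ratio in endothelial cells was that of Aldh1a1, at 3.99 against 9.57 CPM (-0.48), beside hepatocyte markers summing to 122 CPM at recovery and 473 CPM at injury in the same cells. Of the 43 pathway genes 0 were past 2-fold higher and 3 lower there at recovery: Rbp4 (5.71 against 51.2 CPM, -1.96), Ttr (13.5 against 52.5 CPM, -1.41) and Lpl (0.571 against 13.8 CPM, -1.17). The part of free hepatocyte RNA was not tested. In duct cells 2 of the 43 were past 2-fold higher and 1 lower. Ces1d (1076 against 500.4 CPM, 1.09) and Rarres2 (22.0 against 3.71 CPM, 1.22) were higher at recovery.

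Stellate cells could be compared only between positive recovery and negative injury, which differ in fraction and stage at once, so the 2 cannot be told apart. Of the 9 genes, 5 reached 10 CPM in either group. Rdh10 was the single one of the 9 genes past 2-fold (1.07; interval -0.10 to 2.11), against 9.59% of 8975 genes (5.87% higher, 3.72% lower), and it was no longer so in 5 of 9 alternative settings. Lrat (803 against 1193 CPM, -0.57; -0.79 to -0.34) and Aldh1a1 (188 against 331 CPM, -0.78; -1.22 to -0.35) were lower in the positive recovery cells, within 2-fold. Fibroblast-like markers summed to 475 CPM in the positive recovery and 78.0 CPM in the negative injury stellate cells, mesothelial markers to 238 and 14.2 CPM, and smooth muscle markers to 860 and 2101 CPM, and the part of such mixture in these ratios was not tested. Among the pathway genes only Lpl was past 2-fold (508 against 239 CPM, 1.06).

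Mesothelial cells of the positive recovery library were also split by Osr1, the transcription factor in the title of the series, into 354 cells with and 891 without an Osr1 UMI. The median depths were 16164 and 13806 UMIs, so a cell with an Osr1 UMI was also a somewhat deeper cell. Aldh1a2 stood at 168 CPM (159 to 178) in the cells with and 50.9 CPM (47.2 to 54.8) in those without (1.55), and Stra6 at 11.9 against 0.289 CPM (1.09). These 2 of 9 genes were past 2-fold, against 4.84% of 8878 genes (3.01% higher, 1.84% lower), both higher in cells with Osr1. Of the 9, 4 reached 10 CPM in either part of the split. Without the single deep cell Stra6 was at 3.27 CPM in the cells with Osr1 and its ratio fell to less than 2-fold (0.37), whereas the Aldh1a2 ratio was 1.56. Rdh10 was just inside the limit at 83.1 against 37.2 CPM (0.98), and Aldh1a1 differed little, at 243 against 225 CPM (0.10). Thinned to 1000 UMIs, 16.3% (12.6 to 20.6) of cells with and 5.11% (3.72 to 6.83) of cells without an Osr1 UMI held Aldh1a2, and 22.3% and 19.9% held Aldh1a1. In single cells the median Aldh1a2 level was 133 CPM with and 0 without Osr1. The pathway genes past 2-fold were 5, all higher with Osr1: Rarres1 (53.3 against 1.80 CPM, 2.42), Cyp1b1 (34.4 against 1.95 CPM, 1.89), the retinol dehydrogenase Dhrs9 (26.8 against 2.31 CPM, 1.58), Fabp5 (661 against 225 CPM, 1.51) and Lpl (25.9 against 6.21 CPM, 1.15).

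**Figure D5:**
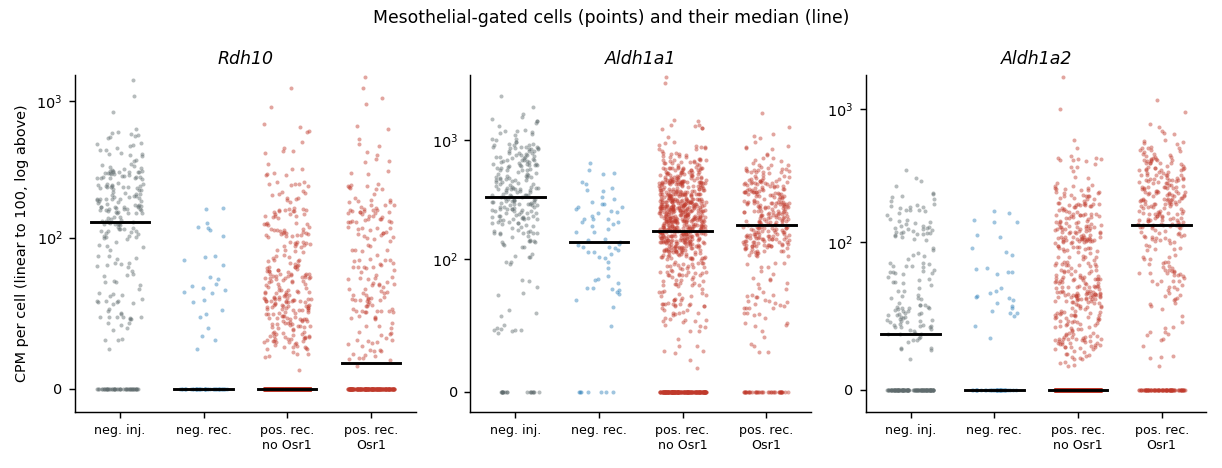
Levels of Rdh10, Aldh1a1 and Aldh1a2 in single mesothelial cells (points, CPM per cell, linear to 100 and logarithmic above) with the median of each group (lines). Negative injury cells have the highest medians of Rdh10 (129 CPM) and Aldh1a1 (333 CPM), and positive recovery cells with an Osr1 UMI the highest median of Aldh1a2 (133 CPM).

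For the 6 genes that reached 10 CPM in a group, the genes with the most similar pattern were sought among 12322 genes over the 12 groups, by Pearson's r of log2(CPM + 10). The groups share libraries and in part depth, so r is a description. Lrat was closest to Adamts13 (r = 0.995), Bmp5 (0.994) and Lhx2 (0.993), Lhx2 being a transcription factor of stellate cells. Rarb was closest to Lrrc8a (0.991), Pros1 (0.985) and Prex2 (0.980), and Aldh1a2 to Sv2a (0.984), Slc6a4 (0.980) and Tmeff2 (0.980). The closest genes to Aldh1a1 were Tmem176b (0.980), Pkia (0.968) and Ergic3 (0.967), to Aldh1a3 Matn2 (0.963), Hrct1 (0.952) and Fbln5 (0.938), and to Rdh10 Prkg2 (0.940), Gm47101 (0.939) and Gm47547 (0.936).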

How the data were processed

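Livers were digested with Pronase and Collagenase, cells were purified on Nycodenz, and libraries were made, per the labels' protocols, with the 10x Genomics 3' v2 kit. The deposited matrices hold raw UMI counts per gene and barcode, written by software 3.1.0 per the file headers. The submitters' processing notes name mm10, GRCh38 and featureCounts 1.6.2, and the aligner is not given in the sources used here. Counts were not normalized before deposit. Cells with at least 500 UMIs, 300 genes and at most 20% mitochondrial UMIs were kept, and doublets called per library with Scrublet (scanpy 1.11.5, seed 7) were removed, leaving 31432462 UMIs at positive recovery, 27200555 at negative recovery and 48622040 at negative injury. CPM are UMIs per 1000000 UMIs of the cells summed. Sums have exact Poisson and shares Clopper-Pearson intervals, at 95%, which cover counting error only. Limits for 0 UMIs take 3 counts of the group. Classes with under 30 cells in a library have UMI counts only, which does not apply to subsets chosen after the data were seen. The ratio step was tested on simulated data. The 9 genes, the gates and the lists were chosen with earlier results of these data known. The pathway list had 44 symbols, of which 43 were found. Pathway genes past 2-fold were named, at most 10 a comparison and apart from 1 gene that is counted but not reported here, with the 3 most similar genes of each member. Alternatives were another added value, TMM, no filter, doublets kept, equal cell weights, a gate of 2 UMIs, cells of several gates kept, and no cell over 100000 UMIs. Promoters came from the RefSeq table (GRCm38.p6). Gene coordinates are those of the GENCODE annotation of mm10.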

Additional observations from a re-analysis of the deposited data

How the results depend on the processing

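No ratio past 2-fold changed sign under any alternative, and no paired analysis was possible because each group is 1 library. The comparisons of mesothelial and endothelial cells between fractions and of stellate cells, and the setting without cells over 100000 UMIs, were chosen after the data were seen. The number of levels of at least 10 CPM was 33 to 45, against 35. Shares of all genes past 2-fold were not computed for the settings below. Whether the counts there stand out from other genes was therefore not tested. A smaller added value also lets genes under 10 CPM pass 2-fold. With 1 CPM added, genes past 2-fold numbered 3 for recovery against injury in library sums (1 otherwise), 5 for stellate against mesothelial cells (3), 1 for duct and 1 for endothelial cells at recovery against injury (0 each), 1 for mesothelial and 4 for endothelial cells between fractions (0 each), 3 for stellate cells between libraries (1) and 5 for the Osr1 split (2). With 50 CPM added they numbered 3 for the fractions in library sums (5), 2 for fibroblast-like against mesothelial cells (4), 0 for stellate cells between libraries and 1 for the Osr1 split. TMM gave 2 for recovery against injury in library sums and 0 for stellate cells. Equal cell weights gave 2 for endothelial cells between fractions, 2 for stellate cells and 1 for the Osr1 split. A gate of 2 UMIs gave 0 for stellate cells. Keeping cells of several gates gave 1 for endothelial cells at recovery against injury and 3 between fractions. Without cells over 100000 UMIs the Osr1 split had 1. Keeping doublets or all barcodes changed no count by over 1.5 times. Depth limits Stra6, Crabp1 and Crabp2, which had few or no UMIs, and all stellate values, which rest on 102 and 39 cells. Only 6 and 5 cells were removed as doublets from the negative recovery and negative injury libraries, so many may remain in them.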

Other observations

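Cells that passed no pair of class markers enter the library sums above but no comparison between classes. In the positive recovery library 439 such cells, at a median of 779 UMIs, had Aldh1a2 at 83.7 CPM (67.1 to 103), Rdh10 at 56.1 CPM (42.7 to 72.4) and Lrat at 29.5 CPM (31 UMIs). Mesothelial markers in them summed to 3158 CPM and stellate markers to 1149 CPM. One cell held 25 of the 59 Rdh10 UMIs. In the negative injury library 372 such cells had Aldh1a1 at 897 CPM (857 to 939) and hepatocyte markers at a summed 42519.7 CPM.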
